A study of Mus musculus with 3 samples.

Results

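Communication at a chemical synapse starts with the synaptic vesicle. Vesicles filled with transmitter by transporters in their membrane are tethered by synapsins, docked at the active zone by large scaffold proteins, fused with the plasma membrane by the SNARE proteins once calcium reaches synaptotagmin, and then retrieved by endocytosis. This section describes ribosome footprints on 40 genes of that cycle, out of 20823 genes with a 5′ UTR, a coding sequence (CDS) and a 3′ UTR, in cultured mouse neurons. The members were taken by gene symbol, and each was read on its longest GENCODE transcript with all 3 regions. By role they are 14 vesicle membrane genes, 3 synapsins, 9 genes of the SNARE fusion machinery, 9 active zone scaffold genes and 5 vesicle endocytosis genes. Each of the 40 symbols was found.

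Ribosome profiling sequences the short mRNA pieces that ribosomes shield from nuclease, so that the number of reads on a CDS tracks how many ribosomes were on it. Cycloheximide stalls elongating ribosomes where they are. Harringtonine stops ribosomes at the point of initiation while those farther along keep moving and leave the mRNA, which is called run-off. The cells were primary neurons from the cortex of mouse embryos, and no genotype is given for them. The WT library is from untreated neurons, the Chx library from neurons given cycloheximide for 2 min, and the Harr library from neurons given harringtonine for 2 min and then a cycloheximide pulse. Dishes were pooled, 3 per library, and cycloheximide was in the rinse and lysis buffers of every library, WT included. With 1 library per treatment there is no replicate, so no test between treatments was possible. Errors given as ± are 1 standard error (SE) from read counts, and all intervals cover counting error only. A change is said to be called when it was at least 2-fold and its 95% counting interval excluded no change.

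The libraries held 35722483 (Chx), 9754412 (Harr) and 30219197 (WT) reads. Footprints on 8 neuronal markers made up 1.00% to 1.11% of CDS reads and those on 4 astrocyte markers 0.0204% to 0.0386%, while Mog and Mobp (oligodendrocyte) and Cdh5 and Tek (endothelial) had 0 CDS reads in the 3 libraries. A count of 0 allows up to 3 reads, or 0.0840 (Chx), 0.308 (Harr) and 0.0993 (WT) per 1000000 reads. The sample descriptions name a fraction of another experiment, and the grouping here follows the treatment entries.

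Reads were counted at their 5′ end, so a ribosome sitting on the start codon is counted some 12 bases upstream, in the 5′ UTR. The 30 bases around the start codon, from 12 before it to 18 from its first base, are shown for the members whose 5′ UTR signal moved most and least between libraries. Lower case is mRNA sequence of the GENCODE M21 transcript, and capitals mark the annotated start codon. The 3 members with the highest change of the 5′ UTR:CDS ratio from Chx to Harr were Syp, Napa and Syn3, the last on its longest transcript only.
Syp: cccgcattgctgATGctgctgctggcagac
Napa: ctgcgcgacgtcATGgacaactccgggaag
Syn3: tctattgcagccATGaacttcctccggagg
The 3 with the lowest change were Ppfia2, Pclo and Bsn.
Ppfia2: gagacattagcaATGatgtgtgaagtgatg
Pclo: tcccgccgagccATGggcaacgaggcgagc
Bsn: cgcctgcccaccATGggcaacgaggccagc
The 3 with the highest change from WT to Harr were Nsf, Slc17a7 and Sh3gl2.
Nsf: gtgtccgcgaagATGgcgggccggactatg
Slc17a7: ggcacagccaccATGgagttccggcaggag
Sh3gl2: ccgcatcccatcATGtcggtggcagggctg
On mm10 these start codons lie at chrX:7638693-7638695 (Syp, plus strand), chr7:16098677-16098679 (Napa, plus), chr10:86467287-86467289 (Syn3, minus), chr10:106474634-106474636 (Ppfia2, plus), chr5:14515222-14515224 (Pclo, plus), chr9:108190256-108190258 (Bsn, minus), chr11:103953979-103953981 (Nsf, minus), chr7:45164083-45164085 (Slc17a7, plus) and chr4:85205577-85205579 (Sh3gl2, plus). The Ppfia2 and Nsf windows cross an exon junction.

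A purine at position -3 and a G directly after the ATG favor recognition of a start codon. A purine stood at -3 in 38 of the 40 members and in 84.0% of all 20719 transcripts that start with ATG, the exceptions being Syp and Syn2, which have C. A G followed the ATG in 21 members (52.5%, against 49.2% of all transcripts). The members' 5′ UTRs were a median of 209.5 nt long (all genes 177 nt) and 67.6% G or C (all genes 59.8%), from 48.0% in Synpr to 88.0% in Syngr1. An ATG triplet upstream of the start codon was found in 19 of 40 members (47.5%, all genes 55.5%), with 7 such triplets each in Sv2b, Syt5, Syt11 and Slc17a6.

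The vesicle genes were read deeply, and their summed share of CDS reads was nearly the same in the 3 libraries, while the shares of single roles were not. The 40 members held 1.40% of CDS reads (Chx), 1.36% (Harr) and 1.39% (WT). The SNARE machinery held 0.303% (Chx), 0.173% (Harr) and 0.377% (WT), and the active zone genes held 0.139%, 0.241% and 0.146%. Levels are given as RPKM, reads per kilobase of CDS and per 1000000 reads of the library, the scale on which genes can be compared. Each member lay above the median gene in each library, and 22 of 40 were above the 90th percentile of all genes in WT. The median gene stood at only 1.91 RPKM in WT, where 5344 of the 20823 genes had 0 CDS reads. The RPKM in WT ran from 4.03 for Rims2 to 1561 for Vamp2, with a median of 78.5. In Harr the members' median RPKM was 41.1, and CDS reads of all genes were fewer there, 386957 per 1000000 reads of the library against 565750 in Chx and 551655 in WT.

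**Figure D1:**
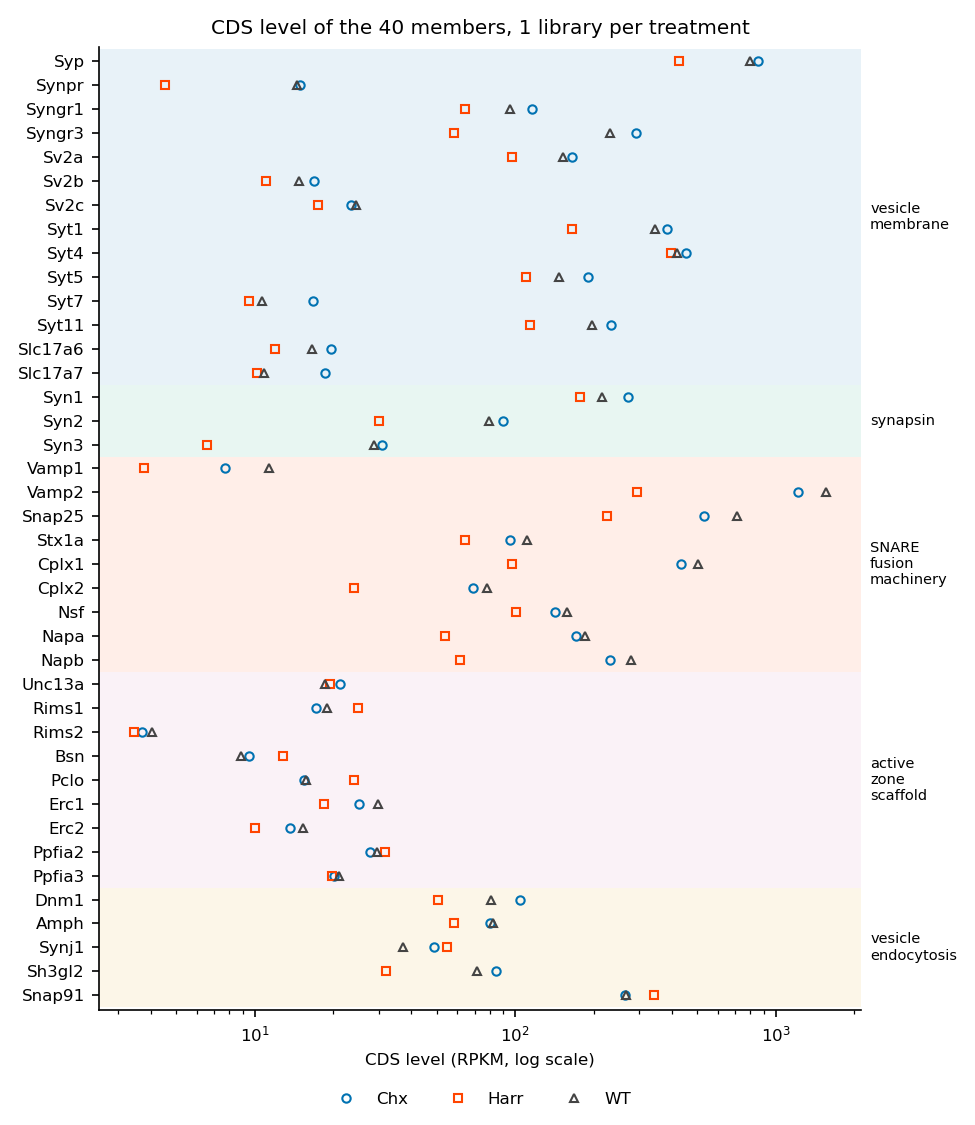
CDS level of each member in RPKM on a log axis, with 1 point per library (circles Chx, squares Harr, triangles WT) and members shaded by role. Vamp2 is highest in Chx and WT (1219 and 1561 RPKM) and Rims2 lowest in all 3 libraries, and the 9 active zone genes sit below 32 RPKM in each library.

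The 5 highest members in WT were Vamp2, Syp, Snap25, Cplx1 and Syt4. Vamp2, the vesicle SNARE synaptobrevin 2, had 15289 CDS reads (Chx), 1011 (Harr) and 16558 (WT) on 351 nt. Syp encodes synaptophysin, the classic vesicle membrane marker, and had 28879, 3906 and 22870 reads, the most of any member in Chx and WT. Snap25, the plasma membrane SNARE that also marks neurons, had 11773, 1368 and 13309. Cplx1, complexin 1, which clamps and then promotes fusion, had 6278, 385 and 6147. Syt4, a synaptotagmin that lacks calcium binding by its first C2 domain, had 20693, 4962 and 16175.

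Among the other vesicle membrane genes the levels of related members were far apart. Syt1, the calcium sensor of fast release, had 17312 CDS reads (Chx), 2032 (Harr) and 13152 (WT) (344 RPKM in WT), Syt11 had 10821, 1442 and 7739 (198), Syt5 had 7904, 1243 and 5151 (147), and Syt7, a slower high-affinity sensor, had 1104, 171 and 595 (10.7). Of the SV2 glycoproteins, Sv2a had 13185, 2107 and 10287 (153 RPKM in WT), Sv2c 1825, 372 and 1618 (24.5), and Sv2b 1237, 223 and 919 (14.8). The synaptogyrins Syngr3 (7185, 391 and 4840) and Syngr1 (2918, 441 and 2037) and the synaptophysin relative Synpr (519, 43 and 429) spanned 232 to 14.5 RPKM in WT. Of the Syt11 transcript, 11.8% of 25-base words in the 5′ UTR and CDS also occur in 1500004A13Rik, so its reads may be split. No other member shared more than 1.36%.

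Transmitter transporters set which transmitter a vesicle carries. The glutamate transporters Slc17a6 (VGLUT2) and Slc17a7 (VGLUT1) were low: Slc17a6 had 1233, 204 and 880 CDS reads, 16.6 RPKM in WT, and Slc17a7 had 1125, 167 and 552 reads, 10.9 RPKM in WT. The GABA transporter Slc32a1, which is no member, had 10948, 1089 and 10067 reads, or 211 RPKM in WT, and the GABA-synthesizing enzyme Gad1 had 416 RPKM in WT. In these bulk cultures fewer cells of a type and less RNA per cell cannot be told apart.

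The synapsins, phosphoproteins that cluster vesicles, fell in the order Syn1 (19505, 3481 and 13084 reads, 215 RPKM in WT), Syn2 (4642, 422 and 3440, 79.1 RPKM) and Syn3 (809, 47 and 636, 28.8 RPKM). Among the remaining fusion genes, Stx1a, the plasma membrane syntaxin, had 2632, 482 and 2578 reads. The NSF ATPase takes SNARE complexes apart with its SNAP adaptors, and Nsf had 11374, 2188 and 10650 reads, Napa 5419, 465 and 4977, and Napb 7411, 539 and 7559. Complexin 2 (Cplx2) had 1000, 95 and 954. Vamp1, the synaptobrevin of brainstem and spinal neurons, had 97, 13 and 122 reads and is the member with the largest counting error.

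The active zone scaffold genes were lower per length, with 3.44 to 31.7 RPKM over the 3 libraries, and some are very long. Pclo (piccolo, CDS of 15207 nt) had 8434 reads (Chx), 3553 (Harr) and 7236 (WT), and Bsn (bassoon, 11829 nt) had 4031, 1489 and 3176. Unc13a, which primes vesicles, had 3902, 973 and 2897. Of the liprins, Ppfia2 had 3754, 1167 and 3377 and Ppfia3 had 2572, 694 and 2286. Of the ELKS scaffolds, Erc1 had 3022, 607 and 3023 and Erc2 had 1438, 287 and 1365. RIM proteins link vesicles to calcium channels, and Rims2 had 603, 154 and 560. Rims1 had 406, 160 and 377 reads on a CDS of only 660 nt, and its 5′ UTR overlaps the CDS of other transcripts. The Rims1 transcript with the longest CDS, 4275 nt, had 4087, 1172 and 3182 CDS reads.

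The endocytosis genes lay between these groups. Snap91 (AP180, a clathrin assembly protein) had 25644 reads (Chx), 8996 (Harr) and 21762 (WT), the most of any member in Harr. The dynamin Dnm1, which cuts vesicles off, had 9482, 1258 and 6246. Synj1, a lipid phosphatase that strips the clathrin coat, had 8386, 2576 and 5398. Its partners Amph (amphiphysin) and Sh3gl2 (endophilin A1) had 5900, 1169 and 5098 reads and 2224, 229 and 1589 reads.

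Snap25 has a pair of alternative coding exons of which the upstream is used mainly in the immature brain and the downstream in the mature brain. The upstream exon (mm10, chr2:136769743-136769860, 118 nt) had 2032 reads (Chx), 103 (Harr) and 2449 (WT). The downstream exon (chr2:136770057-136770174, 118 nt) had 337, 7 and 491. Thus the upstream exon held 85.8% of the reads of the pair in Chx (Wilson 95% interval 84.3 to 87.1), 83.3% in WT (81.9 to 84.6) and 93.6% of only 110 reads in Harr (87.4 to 96.9). The longest Snap25 transcript, used in the rest of this section, carries the downstream exon.

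In the Harr library footprints of the vesicle genes lay more in the 5′ UTR. Over the 40 members the 5′ UTR held 7.36% of the reads of the 3 regions (Chx), 32.9% (Harr) and 5.11% (WT). Per nucleotide the members' 5′ UTRs were read 0.806 times as densely as their CDSs (Chx), 5.19 (Harr) and 0.549 (WT), and the values over all genes were 0.608, 3.36 and 0.419. The 5′ UTR was denser than the CDS for 11 members (Chx), 33 (Harr) and 5 (WT). In 30 of 40 members the ratio fell in the order Harr, Chx, WT. The pooled values over all genes have the same order. These counts were not made over all genes, so they do not set the members apart.

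The change was measured per gene as the log2 odds ratio of 5′ UTR to CDS reads between 2 libraries, which needs no library scaling. From Chx to Harr the ratio was called higher in 37 of the 38 members with at least 10 5′ UTR reads, beside 88.8% of all 10806 genes tested, and the members' median was 2.89 (all genes 2.45). From WT to Harr it was called higher in 36 of 38, beside 93.7% of 10384 genes, with a median of 3.72 (all genes 3.23). Both counts are near the background. Synpr had 0 5′ UTR reads in each library on a 5′ UTR of 25 nt and was not tested in any pair. On its most-read transcript, with a 5′ UTR of 300 nt, Synpr had 118 reads (Chx), 60 (Harr) and 133 (WT). Rims1 (5, 4 and 11 reads) was under the minimum from Chx to Harr, and Rims2 (8, 5 and 3) was under it from WT to Harr.

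**Figure D2:**
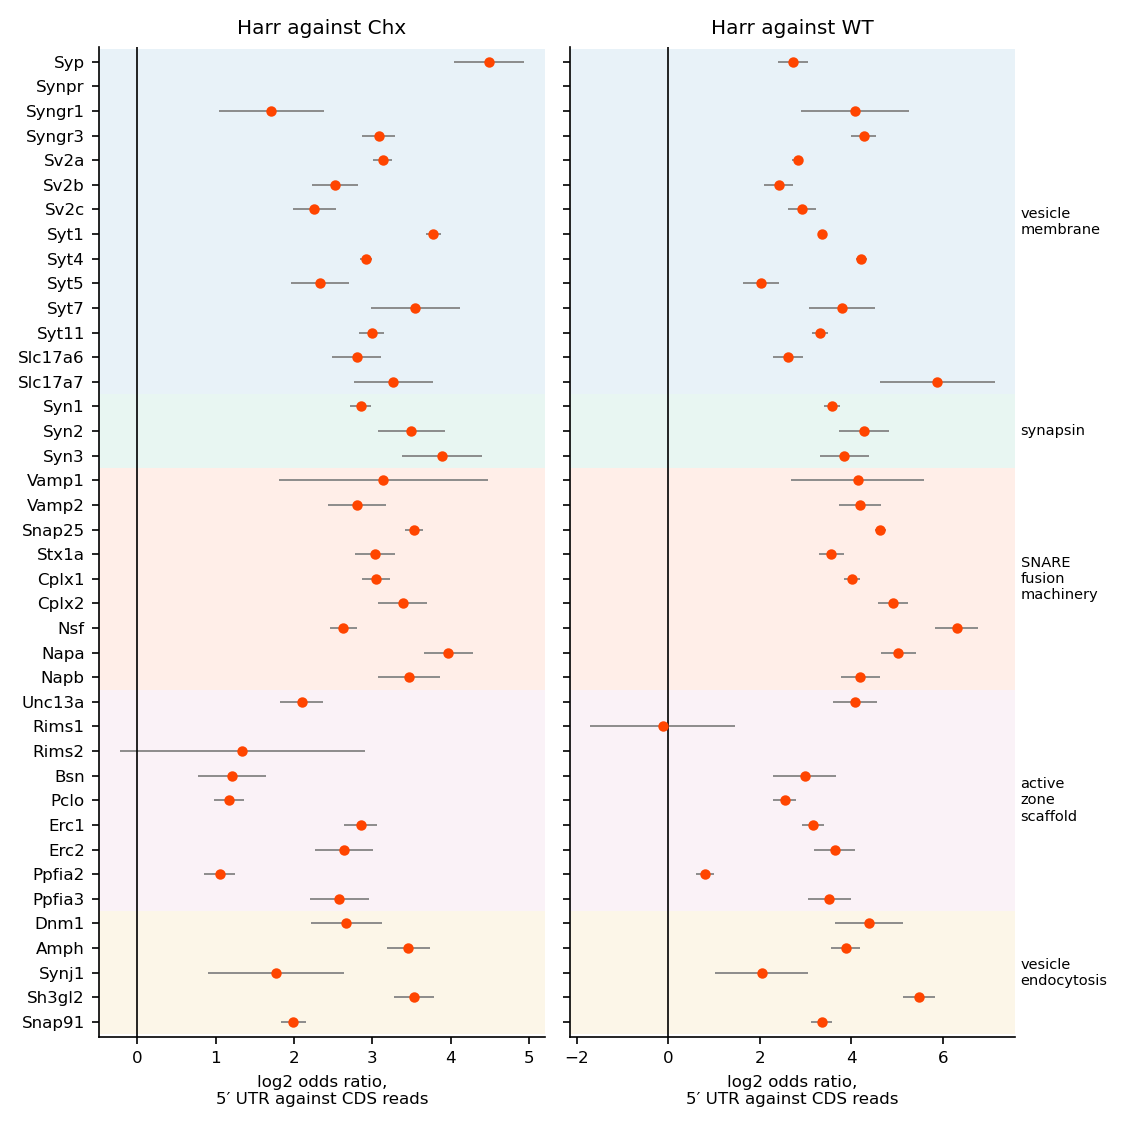
Change of the 5′ UTR:CDS ratio (log2 odds ratio) in Harr relative to Chx (left) and to WT (right) for each member with at least 10 5′ UTR reads in the pair, shaded by role. Bars are 95% counting intervals. All 38 points lie above 0 on the left, with the active zone genes Ppfia2, Pclo and Bsn lowest, and Rims1 alone lies below 0 on the right.

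Syp had the highest change from Chx to Harr (log2 4.49 ± 0.23), from 53 5′ UTR reads (Chx), 162 (Harr) and 143 (WT). The Harr value is above both others although that library was the shallowest. Napa followed (3.97 ± 0.16) with 177, 239 and 78 reads, and Syn3 (3.89 ± 0.26) with 212, 184 and 171. Syn3 was read on a CDS of 732 nt, and on its most-read transcript, with a CDS of 1740 nt, its value was 2.97, below that of Syt1 (3.78). At the low end, Ppfia2 (1.05 ± 0.10) had 685, 440 and 732, Pclo (1.17 ± 0.10) had 517, 490 and 171, and Bsn (1.21 ± 0.22) had 97, 83 and 22. Rims2 (1.34 ± 0.80) was the tested member that was not called. By role the medians were 3.50 for the synapsins, 3.14 for the SNARE machinery, 2.99 for the vesicle membrane genes, 2.67 for the endocytosis genes and 1.72 for the active zone genes. The change fell with CDS length over the 38 members (Spearman's rho -0.63, across genes of the same libraries) and had a rho of 0.07 with 5′ UTR length. For Harr against WT the values were -0.40 with CDS length and -0.43 with 5′ UTR length.

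From WT to Harr the highest members were Nsf (6.30 ± 0.24), Slc17a7 (5.88 ± 0.64) and Sh3gl2 (5.48 ± 0.18). Nsf had 38 5′ UTR reads in WT and 624 in Harr, although the Harr library is the shallower. Slc17a7 had 5 and 98 reads, and Sh3gl2 had 113 and 731. The lowest were Rims1 (-0.12 ± 0.81), Ppfia2 (0.80 ± 0.10) and Syt5 (2.02 ± 0.20), the latter with 106 and 104 reads. Rims1 is the member whose direction went against the others, on 15 reads in the pair. The 5′ UTRs of Rims1 and Syt5 overlap a CDS on the same strand, the only members of which this is true.

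Where the 5′ UTR is split by an intron, its reads can be placed roughly. In the 15 members with at least 1 exon upstream of the start codon's exon, the part in the exon of the start codon had 0.978 times the CDS density (Chx), 5.46 (Harr) and 0.732 (WT), and the upstream exons had 0.589, 3.38 and 0.465. Cplx2 had 1195 reads (Chx), 1222 (Harr) and 386 (WT) on the 88 nt next to its start codon, against 1000, 95 and 954 on its whole CDS. Its upstream exon of 227 nt had 365, 336 and 133. In Snap25 the upstream exon of 148 nt had 1035, 1947 and 489 reads, more than the 62 nt next to the start codon had in Harr (1624). The upstream exon of Cplx1 had 2149, 641 and 659 reads, and its density relative to the CDS was 1.02 (Chx), 4.96 (Harr) and 0.319 (WT). Syt1 showed 5 segments, of which the first, 400 nt, held 1439, 2451 and 1993 reads, and the last 17 nt before the start codon 493, 458 and 236. Thus reads far upstream of the start codon were present in untreated neurons too. Members with an upstream ATG had a median change from Chx to Harr of 2.80 and those without of 3.03 (19 with the minimum in each).

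Between Chx and untreated neurons the 5′ UTR share differed too, and very unequally among the vesicle genes. From WT to Chx the 5′ UTR:CDS ratio was called higher in 16 of the 39 members tested (41.0%), beside 30.2% of all 10483 genes, and lower in 1 member, Syp, beside 1.09%. The members' median was 0.93 (all genes 0.66). Called higher were 5 of 9 SNARE machinery genes, 4 of 9 active zone genes, 3 of 5 endocytosis genes, 4 of 13 vesicle membrane genes and 0 of 3 synapsins.

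**Figure D3:**
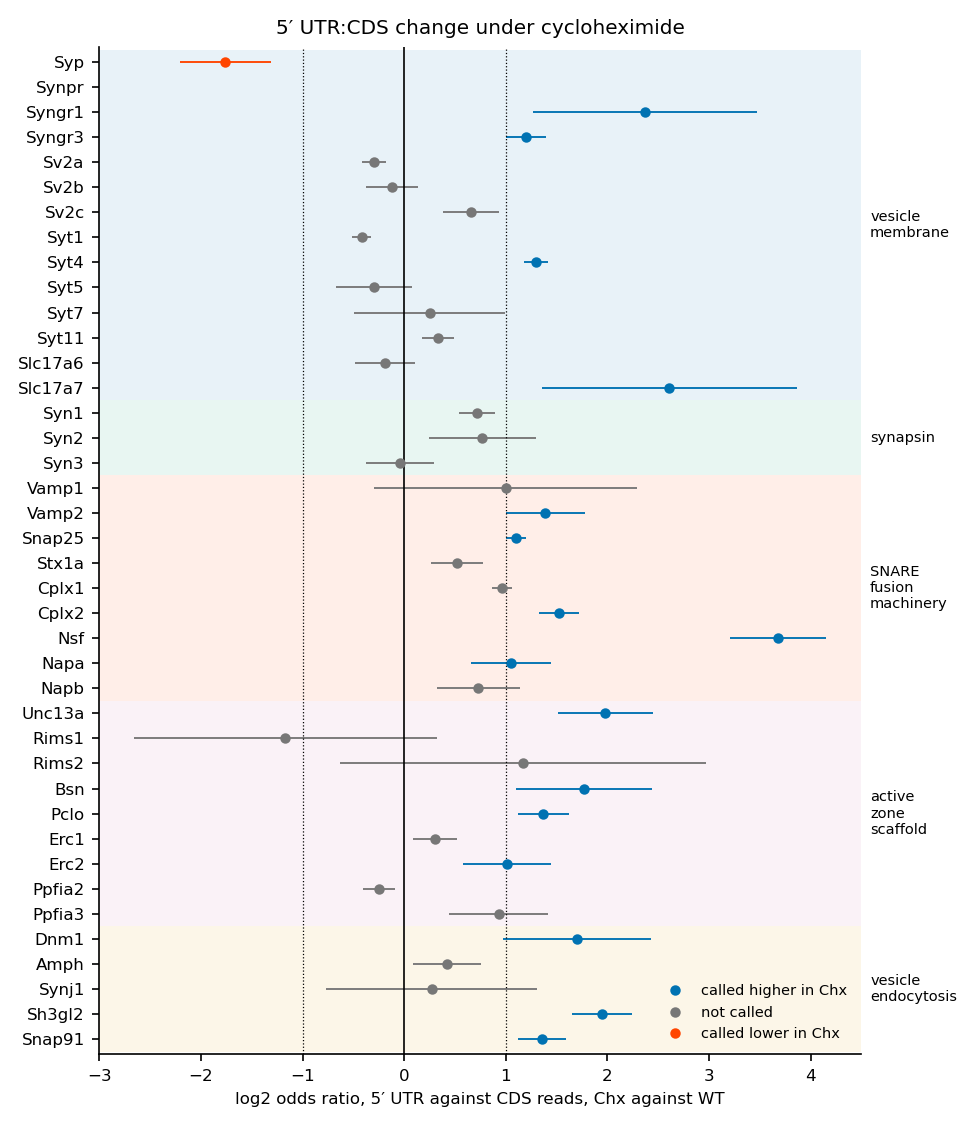
Change of the 5′ UTR:CDS ratio (log2 odds ratio) in Chx relative to WT for 39 members, with 95% counting intervals, colored by call and shaded by role. Dotted lines mark a 2-fold change in each direction. Nsf is highest at 3.68 and Syp, at -1.76, is the member called lower.

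Nsf led with 3.68 ± 0.24, from 38 5′ UTR reads in WT to 525 in Chx at like CDS counts (10650 and 11374). The first coding exon of Nsf, 12 nt long, had 137 reads (Chx), 68 (Harr) and 0 (WT), where up to 3 are allowed. Slc17a7 (2.61 ± 0.64) rose from 5 to 68 reads, and Syngr1 (2.37 ± 0.56) from 7 to 55. Other called members included Unc13a (1.98 ± 0.24, from 43 to 230 reads), Sh3gl2 (1.95 ± 0.15, from 113 to 614), Bsn (1.77 ± 0.34, from 22 to 97) and Cplx2 (1.52 ± 0.10, from 519 to 1560). Syp went the other way (-1.76 ± 0.23), with 143 reads in WT and 53 in Chx, and its CDS had more reads in Chx than in WT.

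Besides Syp, 8 members were below 0, and none of them was called. Syt1 (-0.42 ± 0.05) had 2324 (Chx) and 2362 (WT) 5′ UTR reads, Sv2a (-0.30 ± 0.06) had 1485 and 1427, and Ppfia2 (-0.25 ± 0.08) had 685 and 732. For the other 5 the interval included 0. These were Rims1 (-1.17 ± 0.76) on 5 and 11 reads, Syt5 (-0.30 ± 0.19) on 132 and 106, Slc17a6 (-0.19 ± 0.15) on 260 and 211, Sv2b (-0.12 ± 0.13) on 333 and 268, and Syn3 (-0.04 ± 0.17) on 212 and 171. Over the 39 members the change was lower with longer 5′ UTRs (rho -0.48). The 19 members with an upstream ATG had a median of 0.42, and the 20 tested members without had 1.02.

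The synaptophysin start region is shown in more detail because Syp was the member called lower. Per nucleotide its 5′ UTR was read 0.00781 (Chx), 0.177 (Harr) and 0.0266 (WT) times as densely as its CDS, the lowest of the tested members in Chx, while Rims1 was lower in Harr (0.130) and Vamp2 in WT (0.0120). The first 30 bases of its CDS, with in-frame ATG codons in capitals, are as follows (mm10, chrX:7638693-7638722, plus strand).
Syp CDS start: ATGctgctgctggcagacATGgacgtggtg
The next in-frame ATG is codon 7, at base 19, so that a ribosome on it would be counted inside the CDS. A near ATG is not particular to Syp. Snap25, called higher from WT to Chx (1.10 ± 0.05), also has its next in-frame ATG at codon 7. In Nsf, the highest member in that pair (3.68 ± 0.24), it is codon 6. Whether the second ATG bears on the Syp change was not tested. The first coding exon of Syp, 36 nt, had 411 reads (Chx), 518 (Harr) and 285 (WT), whereas the next 66 nt had 1503, 167 and 1527. Hence Harr had 1.26 times as many reads as Chx on the first exon and 0.111 times as many on the second.

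The same contrast between the first and second coding exon was seen in most members. Among 24 members with at least 50 reads in Chx and WT on each of both exons, the Harr to Chx ratio was higher on the first in 18, and its counting interval excluded equality in 16, while Erc1 and Rims1 were lower by the same measure. Among 3489 genes with as many reads the ratio was higher on the first exon in 76.7%, with the interval excluding equality in 55.8%, and lower by the same measure in 10.1%. The median difference was 1.64 on the log2 scale for the members and 1.10 for all these genes. In Cplx1 the first 31 nt had 110, 195 and 85 reads in Chx, Harr and WT, and the next 176 nt had 986, 73 and 965. In Napa the first 98 nt had 618, 176 and 468, and the next 80 nt had 449, 11 and 307. In Syt1 the Harr to Chx ratio fell from 0.183 on the first 163 nt to 0.0281 on the next 185 nt.

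Farther along the CDS the Harr reads rose, relative to both other libraries, with distance from the start codon. In the 17 members with a CDS of at least 2000 nt, exons of up to 600 nt were grouped by how far their middle lay from the start codon. The Harr to Chx read ratio was 0.0805 within 600 nt (2624 and 32577 reads), 0.140 from 600 to 1200 nt, 0.383 from 1200 to 2100 nt and 0.467 beyond 2100 nt (7012 and 15031 reads). Over all genes with such a CDS it was 0.124, 0.166, 0.349 and 0.392. Against WT the members' ratios were 0.115, 0.158, 0.495 and 0.580. The ratio of Chx to WT showed no such rise, with 1.43, 1.12, 1.29 and 1.24.

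**Figure D4:**
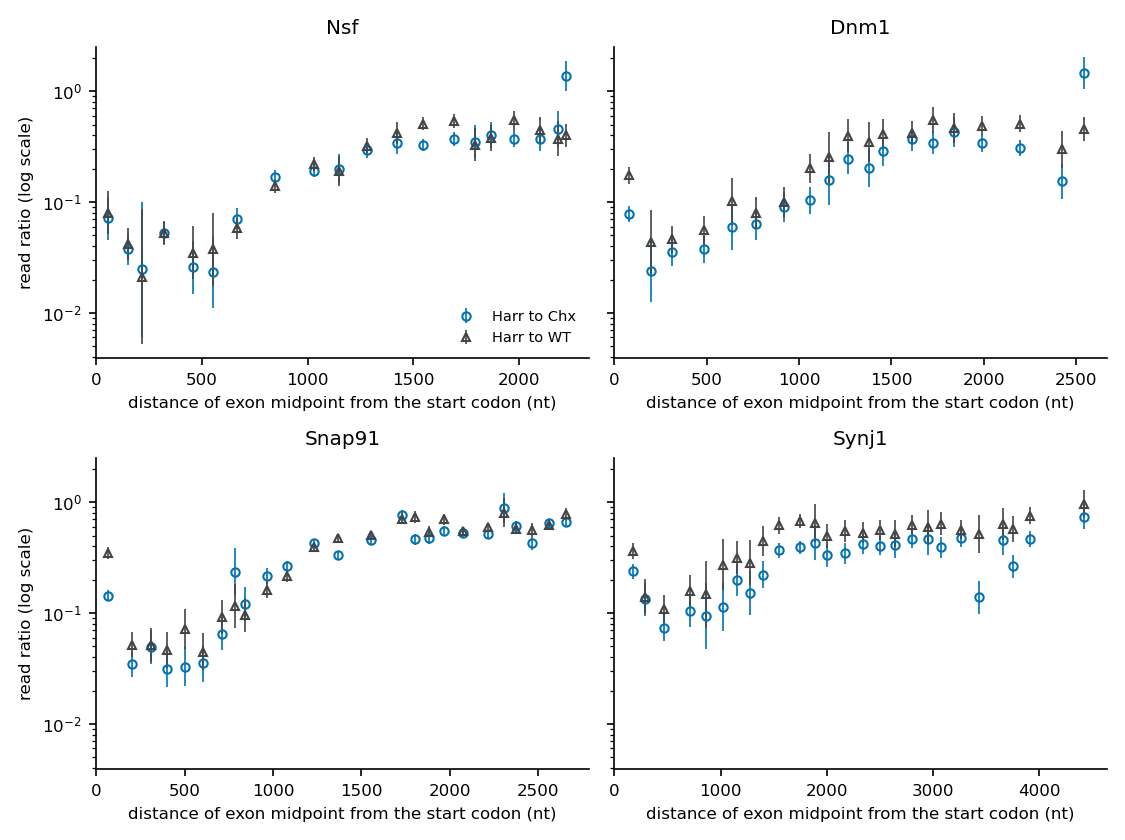
Read ratio of Harr to Chx (circles) and Harr to WT (triangles) on a log axis for the coding exons of Nsf, Dnm1, Snap91 and Synj1, placed by the position of the exon midpoint in nucleotides after the start codon. Exons with at least 50 reads in Chx and in WT are drawn, and bars are 95% counting intervals. In each gene the lowest Harr to Chx ratio lies before 600 nt, and most exons beyond 1200 nt are above 0.2, with lower late exons in Dnm1 (0.154) and Synj1 (0.139).

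In Nsf the Harr to Chx ratio stayed below 0.08 in the exons from 12 to 745 nt and was higher in all later ones. The exon at 98 to 198 nt had 946 reads (Chx), 36 (Harr) and 854 (WT), a Harr to Chx ratio of 0.0381. By the exon of 200 nt that starts 745 nt into the CDS the ratio was 0.168, by the exon centered at 1280 nt 0.294, and at 1975.5 nt 0.372. Snap91 ran from 0.0346 on its second coding exon (1677, 58 and 1117 reads) to 0.216 at 967 nt and 0.670 on its last exon (697, 467 and 600). Dnm1 ran from 0.0241 on its second exon to 0.343 on the exon centered at 1990.5 nt. In Synj1 it was 0.0737 at 465 nt and 0.394 at 1750 nt.

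In the giant scaffolds the first 2 coding exons also had lower ratios than the later large exons, but in Pclo it did not go on rising along the large exons. The second coding exon of Pclo, 1483 nt, had 1513 reads (Chx), 313 (Harr) and 1326 (WT), a ratio of 0.207, and the third, 1392 nt, had 992, 569 and 827, a ratio of 0.574. The largest Pclo exon, 5059 nt, had 3393, 1611 and 2888, a ratio of 0.475, and the next exons of 2018 and 2182 nt had ratios of 0.399 and 0.418. In Bsn the ratio was 0.152 on the first coding exon (210, 32 and 158 reads), 0.346 on the third and 0.394 on the exon of 6642 nt (2196, 866 and 1668).

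The CDS change of the vesicle genes was in general higher for longer CDSs. The CDS change was measured as the log2 ratio of reads per 1000000 CDS reads, so 0 means that a gene kept its share of CDS reads. From Chx to Harr it was called lower in 8 of 40 members, beside 13.7% of 11459 genes, and higher in 2, beside 4.63%. From WT to Harr it was called lower in 10, beside 14.3%, and higher in 3, beside 5.30%. The members' medians were -0.24 and -0.12 (all genes -0.05 and 0.00). These directions are relative to CDS reads as a whole: scaled to the 13 mitochondrially encoded CDSs, which cytosolic ribosomes do not translate, every Harr to Chx change is 1.38 lower and each Harr to WT change 1.31 lower, and no member was called higher.

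**Figure D5:**
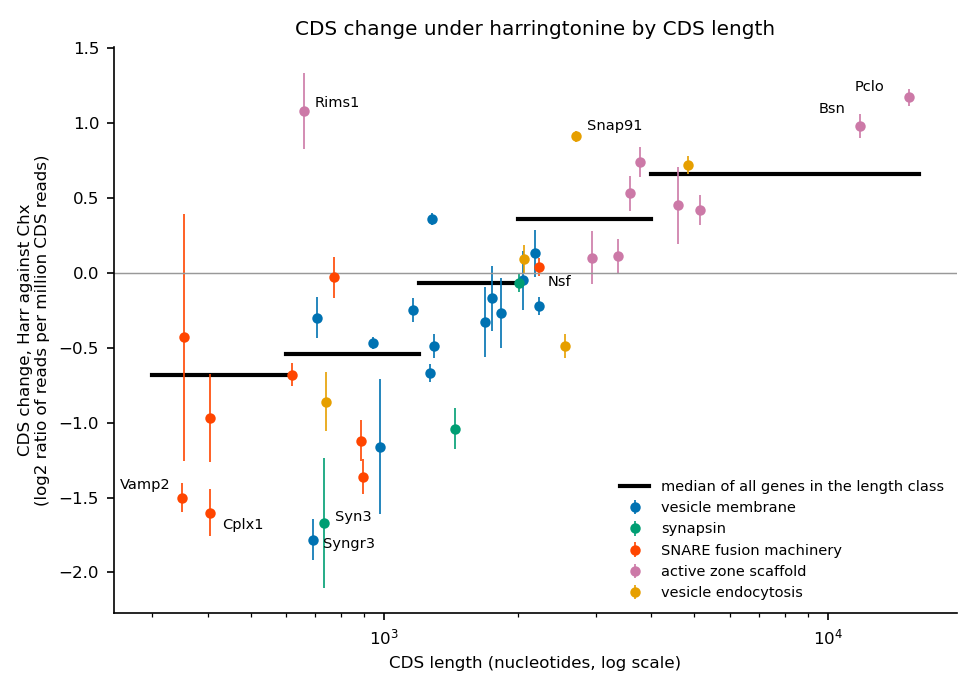
CDS change from Chx to Harr (log2 ratio of reads per 1000000 CDS reads) of the 40 members against CDS length on a log axis, colored by role, with 95% counting intervals. Black lines are the medians of all genes in 5 length classes. The members rise with length from Vamp2, Cplx1, Syngr3 and Syn3 to Bsn and Pclo, and Rims1, read on a CDS of 660 nt, stands apart at 1.08. Syn3 is drawn on a CDS of 732 nt, and on its most-read transcript, of 1740 nt, its change is -0.80.

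Of the 9 SNARE machinery genes, whose CDSs are under 1200 nt except that of Nsf, 4 were called lower from Chx to Harr (median -0.97) and 7 of 9 from WT to Harr (median -1.18). Beside the shares over all genes given above, 28.6% and 30.5% of the 4815 genes with a CDS under 1200 nt were called lower. The lowest members from Chx to Harr were Syngr3 (-1.78 ± 0.07), Syn3 (-1.67 ± 0.22) and Cplx1 (-1.60 ± 0.08). The Syn3 call rests on its transcript, since on the most-read one its change was -0.80 from Chx and -0.62 from WT, under 2-fold. From WT to Harr they were Vamp2 (-1.89 ± 0.05), Cplx1 (-1.85 ± 0.08) and Napb (-1.67 ± 0.06). All 9 active zone genes were above 0 from Chx to Harr (median 0.53). The highest members were Pclo (1.17 ± 0.03), Rims1 (1.08 ± 0.13) and Bsn (0.98 ± 0.04, not called) from Chx, and Pclo (1.12 ± 0.03), Synj1 (1.08 ± 0.03) and Bsn (1.05 ± 0.05) from WT. On the Rims1 transcript with the CDS of 4275 nt, an alternative chosen after seeing the data, the change from Chx was 0.62 ± 0.05 and was not called. From WT to Harr 18 members were above 0, and besides those 3 they were Snap91, Rims1, Ppfia2, Unc13a, Syt4, Slc17a7, Ppfia3, Syt7, Rims2, Syn1, Sv2b, Syt5, Slc17a6, Sv2c and Amph, at 0.91 or less. Besides the scaffolds, Snap91 (0.91), Synj1 (0.72), Syt4 (0.36), Sv2c (0.13), Amph (0.09) and Nsf (0.04) were above 0 from Chx to Harr.

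Rank correlation with CDS length was 0.74 over the 40 members and 0.59 over all 11459 genes. From Chx to Harr the members' median was below that of all genes in 4 of the 5 length classes. Of the 12 members of 2000 to 4000 nt, 3 were above the class median of 0.36, and their own median was 0.09. Of the 7 members of 1200 to 2000 nt, 1 (Syt4) was above it, and in the class under 600 nt the medians were -1.23 for 4 members and -0.68 for all genes. In the class over 4000 nt the members' median was 0.72 and that of all genes 0.66. Against WT the members' median change in Harr was below that of all genes in 3 of the 5 classes, and in the class of 1200 to 2000 nt 4 of 7 members were above the class median (0.04 for the members and -0.01 for all genes). No test was made of these differences.

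The CDS shares of the vesicle genes in Chx were within 2-fold of WT. From WT to Chx 0 of 40 members were called in either direction, beside 0.201% of genes called higher and 0.122% called lower, and the median was 0.03, as over all genes. The highest were Slc17a7 (0.75, with 552 reads in WT and 1125 in Chx), Syt7 (0.61, with 595 and 1104) and Synj1 (0.36), and the lowest Vamp1 (-0.61, with 122 and 97), Snap25 (-0.45) and Vamp2 (-0.39). All 9 SNARE machinery genes lay below 0 (median -0.25), as did 7 of 9 active zone genes, Amph, Snap91, Sv2c and Synpr. Of the vesicle membrane genes, 12 of 14 lay above 0 (median 0.18). Over all genes 6280 of 11459 were above 0.

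The 3′ UTR lies outside the CDS of its own transcript. Over the members it was read at 0.515% of the density of the CDS (Chx), 4.68% (Harr) and 0.939% (WT) (all genes 2.02%, 6.92% and 2.52%). Stx1a had more 3′ UTR reads than any other member in Chx and WT and weighs on these pooled values, and the medians over members were 0.137%, 3.31% and 0.379%. Relative to the CDS, 3′ UTR reads were called higher from Chx to Harr in 33 of 35 members with at least 10 reads, beside 85.6% of genes, and from WT to Harr in 32 of 35, beside 79.0%. The members' median 3′ UTR change was 4.74 from Chx to Harr (all genes 3.73) and 3.15 from WT to Harr (all genes 2.58). The 5′ UTR medians were 2.89 and 3.72, so the rise relative to the CDS was not particular to the 5′ UTR. Syp had 28 3′ UTR reads (Chx), 376 (Harr) and 50 (WT), Syt1 had 18, 176 and 120, and Snap91 had 13, 166 and 41. Syn2 had 0 reads in Chx and 15 in Harr, a ratio at least 55.0-fold higher against a floor of 3 counts. Stx1a went against the rest (-0.09 ± 0.15 from Chx to Harr), with 787, 135 and 747 reads, and its 3′ UTR overlaps a CDS of another transcript, as do those of 5 other members. Between WT and Harr Stx1a (-0.05 ± 0.15) and Vamp1 were below 0, the latter with 11 reads in WT and 0 in Harr, which allows a ratio at most 2.56-fold that in WT against a floor of 3 counts. From WT to Chx the 3′ UTR was called lower in 17 of 30 members, beside 38.5% of genes, with a median of -1.18. Erc1 was called higher (2.05, with 14 reads in Chx and 3 in WT), which was not so on its most-read transcript (-0.72), and 5 members in all were above 0.

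Other genes of the synapse were also mostly called higher in the 5′ UTR:CDS ratio from Chx to Harr, beside the 88.8% of all genes. Of 50 other vesicle and release genes, 33 of the 37 with enough reads were called (median 2.77), with Lin7c (4.51) and Rab3c (4.42) highest and Ppfia4 (0.43) and Unc13c (0.85) lowest. Of 28 other endocytosis genes it was 22 of 27 (median 2.58), with Ap2s1 (3.96) and Clta (3.81) highest and Eps15 and Itsn1 (both 0.31) lowest. Of 28 postsynaptic density genes, the receiving side of the synapse, it was 19 of 25 (median 1.79), with Camk2b (4.57) and Dlg1 (3.85) highest and Homer2 (-0.60) and Iqsec2 (0.27) lowest. From WT to Chx, 10 of 38, 12 of 27 and 8 of 24 were called higher in these lists, beside the 30.2% of all genes. The median CDS change from Chx to Harr was -0.41, -0.06 and 0.47.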

How the data were processed

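Ribosome profiling libraries of primary mouse cortical neurons, 1 each for WT, Chx and Harr, were analyzed from 9 tables. Per the file headers, the authors aligned reads to mm10, removed ribosomal reads and duplicates, and used Plastid to count 5′ ends of reads of 25 to 100 nt with an offset of 0 per exon segment. The study's methods name both TopHat and Rsubread for footprint reads, and the headers do not say which gave these alignments. The deposited counts are whole numbers. The deposited coverage signal is the count per nucleotide, and the deposited RPKM values divide the count by length in kilobases and by library size. Only counts were used, and RPKM was recomputed from them with the header totals.

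Identifiers were matched to GENCODE M21 (99.4% of 142446), segments were summed, and the longest transcript was kept per gene. The members and gene lists were chosen with earlier results of these data known. Odds ratios and CDS ratios had 0.5 added to each count, and CDS ratios needed 100 reads in the 3 libraries. The rule for named genes was the 3 highest and 3 lowest members per pair, members against the median direction, the 5 highest in WT and members under a minimum, and 2 at each end of the other lists. Calls were tested on simulated data. Alternatives were another transcript, pseudocount, minimum, scaling and segment length. Sequences and their features came from the M21 transcripts, and no sequence from chromosome 18 is printed. Libraries held 35722483 (Chx), 9754412 (Harr) and 30219197 (WT) reads. PCR copies are not separate molecules, so intervals show counting error alone, and Harr, the shallowest library, is the least precise. Analyses used Python 3.11.15, numpy 2.4.6 and pandas 2.3.3.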

Additional observations from a re-analysis of the deposited data

How the results depend on the processing

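No called 5′ UTR:CDS change changed sign, and the counts of such calls stayed within 1.5 times of those given, under the alternatives run for them. Of all 143 summary values recomputed, 123 stayed within their limits. The CDS changes depended on 2 of the 3 other scalings. With median-of-ratios size factors 3 members were called higher and 7 lower from Chx to Harr, with a median of -0.18, and the other CDS counts were as given. With the header total, 0 members were called higher from Chx to Harr or from WT to Harr, 15 were called lower from Chx to Harr and 13 from WT to Harr, beside 31.2% and 29.0% of all genes, and the medians were -0.78 and -0.63. With the 13 mitochondrially encoded CDSs, 0 members were called higher in both, 31 and 29 were called lower beside 73.0% and 65.8% of all genes, the medians were -1.62 and -1.44, and called members changed sign, to -0.30 (Rims1) and -0.21 (Pclo) from Chx to Harr and to -0.24 (Synj1), -0.26 (Bsn) and -0.20 (Pclo) from WT to Harr. The median from WT to Chx was then 0.10. With at least 1000 CDS reads, 1 member was called higher from Chx to Harr, since Rims1 has fewer. With the Rims1 transcript of the longest CDS, tried after seeing the data, its call was lost (0.62). With the most-read transcript, the Syn3 calls were lost (-0.80 from Chx to Harr and -0.62 from WT to Harr), 0 members were called higher in the 3′ UTR from WT to Chx, as Erc1 changed from 2.05 to -0.72, the members held 1.40% of CDS reads in Chx and in WT, and their median RPKM in Chx was 79.5. Without the 50 most-read genes the share was 1.62% (Chx), 1.61% (Harr) and 1.62% (WT). No paired analysis was possible because each treatment has 1 library. Depth limits Rims1, Rims2 and Vamp1, which had few 5′ UTR reads.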

Other observations

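Short last coding exons lie next to the stop codon, and 8 members have one of at most 50 nt. In Vamp2 the last 17 nt of the CDS had 445 reads (Chx), 60 (Harr) and 1476 (WT), which is 0.601, 1.23 and 1.84 times the density of the whole CDS. In Nsf the last 22 nt had 68, 93 and 232 reads (0.607, 4.32 and 2.21 times), and in Dnm1 the last 22 nt had 61, 89 and 195 (0.747, 8.22 and 3.63 times). Syn1 had 134, 92 and 183 reads on its last 28 nt (0.494, 1.90 and 1.01 times), Bsn 4, 4 and 18 on 41 nt, and Erc2 0, 2 and 20 on 27 nt. In these 6 genes the density relative to the CDS was lowest in Chx, on few reads in Bsn and Erc2. The same was not computed over all genes, so it cannot be read as a trait of the vesicle genes. Syn3 (24 nt) and Sh3gl2 (10 nt) had 0 reads there in each library.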
